A study of Mus musculus with 14 samples.

Results

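Regions of histone H3 lysine 27 acetylation (H3K27ac) that were present in all libraries of one treatment and in none of the other were described in macrophages sorted from mouse brain tumours. A region was a merged window around peak summits, a summit being the highest base of a called peak. Members were chosen by their presence in lists of equal length: the 53503 summits with the highest deposited value were kept in each of the 7 H3K27ac lists, extended by 250 bp on each side and merged on chromosomes 1 to 19 and X. A region was called gained when all 4 pracinostat libraries and no DMSO library had a kept summit in it, and lost when all 3 DMSO libraries and no pracinostat library had one. Of 109525 regions, 276 were gained, 0.252% of all, and 183 were lost, 0.167% of all. The words gained and lost name these presence patterns. The 459 members were selected on that presence, so the presence itself is given as a description with no test on single regions.

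The host animals were NSG mice, an immunodeficient strain without T, B and natural killer cells, and they carried orthotopic xenografts of T387 glioblastoma in the brain. Pracinostat mice received the drug by mouth on 4 days of the week over 3 weeks, starting on day 7 of tumour growth, and DMSO mice received the solvent mixture alone. The labels give the dose as 30 mg/kg in one place and as 3 mg/kg in the description of how the drug was prepared, and which of them was given cannot be told apart here. CD11b+ tumour-associated macrophages were sorted and lightly fixed, and both treatments also had IgG libraries, 7 in all, as background. The libraries are labelled as biological replicates without naming the animals, so any p-value below measures only the spread between these libraries. The CD11b gate also takes microglia, monocytes, neutrophils and some dendritic cells, and fewer cells of a type and less of the mark per cell cannot be told apart in such bulk libraries.

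H3K27ac is laid down by histone acetyltransferases such as EP300 and CREBBP at active promoters and enhancers, and is removed by histone deacetylases, enzymes that work in corepressor complexes such as CoREST. Pracinostat is an oral hydroxamate inhibitor of histone deacetylases. In macrophages, enhancers carrying the mark are set by lineage factors such as PU.1 and C/EBP and are known to differ between brain-resident microglia and cells derived from blood monocytes.

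The sequences below are the promoter windows, 250 bases before to 50 after a start site, of those among the 10 gained and 10 lost members with the highest values that overlapped a listed promoter. They are shown because each is the part of a one-treatment region that can be read as sequence here, and because they differ in base composition. Each is written from 5′ to 3′ on the strand of its gene, from RefSeq, build GRCm38.p6, and capitals mark CpG, the base pair step that is dense at CpG-island promoters. The first 4 lie in gained regions and the last 2 in lost regions.
Zfp970, chr2:177464492-177464791, plus strand: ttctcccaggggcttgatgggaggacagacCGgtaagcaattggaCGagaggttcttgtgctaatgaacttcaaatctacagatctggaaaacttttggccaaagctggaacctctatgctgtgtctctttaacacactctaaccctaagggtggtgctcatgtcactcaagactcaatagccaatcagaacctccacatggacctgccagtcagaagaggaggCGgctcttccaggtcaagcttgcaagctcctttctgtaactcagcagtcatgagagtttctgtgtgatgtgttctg
Castor2, chr5:134099498-134099797, plus strand: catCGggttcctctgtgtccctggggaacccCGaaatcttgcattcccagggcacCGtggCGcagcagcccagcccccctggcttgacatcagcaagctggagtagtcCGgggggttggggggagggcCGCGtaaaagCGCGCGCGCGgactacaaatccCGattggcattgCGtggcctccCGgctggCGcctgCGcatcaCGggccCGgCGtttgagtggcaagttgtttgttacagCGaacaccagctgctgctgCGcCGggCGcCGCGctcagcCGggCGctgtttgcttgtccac
Ccdc181, chr1:164275348-164275647, plus strand: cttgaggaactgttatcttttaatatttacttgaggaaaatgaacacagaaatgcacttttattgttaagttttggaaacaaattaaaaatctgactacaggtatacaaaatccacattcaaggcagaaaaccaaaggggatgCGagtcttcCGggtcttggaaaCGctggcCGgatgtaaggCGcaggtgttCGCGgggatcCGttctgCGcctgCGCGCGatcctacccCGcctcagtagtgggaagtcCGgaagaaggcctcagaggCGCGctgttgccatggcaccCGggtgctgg
Akr1b10, chr6:34383997-34384296, plus strand: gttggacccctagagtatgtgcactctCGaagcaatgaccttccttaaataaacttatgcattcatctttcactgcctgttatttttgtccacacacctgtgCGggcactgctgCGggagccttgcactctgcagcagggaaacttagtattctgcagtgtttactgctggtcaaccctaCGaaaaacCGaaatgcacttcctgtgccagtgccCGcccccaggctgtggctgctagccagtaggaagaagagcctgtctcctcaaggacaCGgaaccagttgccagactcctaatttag
Slc35a1, chr4:34687389-34687688, minus strand: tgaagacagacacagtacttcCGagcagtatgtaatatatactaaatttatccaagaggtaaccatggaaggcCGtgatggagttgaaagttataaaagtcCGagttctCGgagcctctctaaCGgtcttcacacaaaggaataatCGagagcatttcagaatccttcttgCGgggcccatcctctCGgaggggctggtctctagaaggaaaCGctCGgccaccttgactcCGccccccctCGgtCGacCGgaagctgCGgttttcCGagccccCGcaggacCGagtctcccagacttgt
Dmac2, chr7:25619164-25619463, plus strand: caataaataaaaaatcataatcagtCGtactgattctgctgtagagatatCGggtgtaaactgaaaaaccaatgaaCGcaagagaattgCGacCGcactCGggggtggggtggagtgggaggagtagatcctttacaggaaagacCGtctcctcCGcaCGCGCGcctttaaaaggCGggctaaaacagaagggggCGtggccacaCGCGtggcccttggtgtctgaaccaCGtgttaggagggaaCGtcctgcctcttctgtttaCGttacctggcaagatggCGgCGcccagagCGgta

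The Castor2 window held 28 CpG at 66.3% G or C, the densest of the 6. The Dmac2 window held 21 CpG, the Slc35a1 window 18 and the Ccdc181 window 17. A 2nd Dmac2 window, which overlaps the printed one and is not printed, held 25 CpG at 60.0% G or C. At the other end, the Akr1b10 window held 7 CpG and the Zfp970 window 3, at 48.3% G or C. Both CpG-dense and CpG-poor promoters thus occurred among the gained regions. Of the Zfp970 window 222 bases lay inside the region, and of the Slc35a1 window 268; the other 4 lay wholly inside.

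Before the members are described, one property of the data sets what their presence means. DMSO replicate 2 had 53503 summits, the shortest list, so its whole list was kept, whereas 18.4% to 25.7% of the list was kept in the other 6 libraries, which had 208401 to 291042 summits. Of its summits 34928 (65.3%) stood at its lowest value, 1.43 on the −log10 scale, while the value at the limit of the kept list was 10.3 to 15.7 in the others. It also had the most regions of its own, 22390 against 4494 to 10466 in the others. Among regions in exactly 6 libraries, it was the absent one in 2094, against 289 to 777 for each other library. A gained region therefore had to lack any summit in DMSO replicate 2, and a lost region had to hold one there. Of the 183 lost regions, 137 (74.9%) held only summits at that lowest value in it, compared with 70.5% of the 2341 other regions that were in exactly 3 libraries with it among them. Ranks in this library beyond 18575, the number of its summits above the lowest value, are ties in file order and carry no order. Values repeat within its first 18575 ranks too. The lost regions in F13a1, at rank 11483, and near Ankdd1a, at rank 18218, both had the value 3.56 in it. Its ranks between them are thus also file order. Values repeat in the other lists as well, and ranks within 1 value follow file order there too. In pracinostat replicate 1, for example, a gained region ranked 50162 and a lost region 58554 at the same value, 10.3, which was its limit value.

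The counts were set against all 35 ways to choose which 3 of the 7 libraries form the smaller group. The count of 276 gained regions was the 2nd highest, and the other 34 arrangements gave 71 to 297, with a median of 126. The one arrangement above it grouped DMSO replicates 2 and 3 with pracinostat replicate 3. The exact one-sided permutation p was 0.0571, or 0.114 after Benjamini-Hochberg adjustment over the 2 counts, and the smallest p that 35 arrangements allow is 0.0286. The gained count thus did not pass 0.05. The 183 lost regions were not many for such a count: 21 of the other 34 arrangements gave as many or more, in a range of 120 to 334 with a median of 202. The exact one-sided permutation p was 0.629, before and after adjustment.

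Where DMSO replicate 2 stood moved these counts. In the 20 arrangements that placed it in the group of 4, the count of regions in all 4 and none of the 3 was 71 to 167. In the other 14 arrangements that placed it in the group of 3, as the treatments do, that count was 108 to 297 with a median of 192. Within those 15 arrangements 1 other reached 276, and the exact one-sided permutation p was 0.133. For the lost pattern the 14 others gave 120 to 209 with a median of 168, and 4 reached 183, for an exact one-sided permutation p of 0.333. The sum of gained and lost, 459, was the highest of the 35, with the others at 267 to 429; this sum was looked at after the counts were known. Without DMSO replicate 2, the gained pattern had 496 regions and the lost pattern 764. Over the 15 arrangements then possible the exact one-sided permutation p was 0.133 and 0.800, and 5 arrangements, the treatments among them, reached the sum of 1260.

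**Figure D1:**
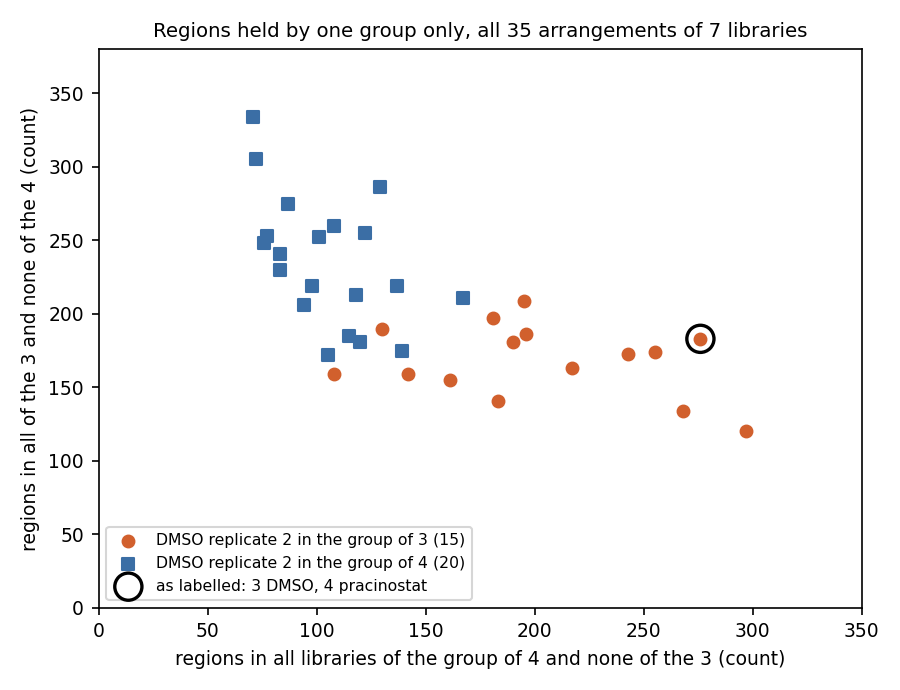
Number of regions present in all 4 and none of the 3 libraries (x axis) and in all 3 and none of the 4 (y axis) for the 35 arrangements of the 7 libraries, with those that put DMSO replicate 2 in the group of 3 marked. The treatment labels give 276 and 183, the 2nd highest value on the x axis and a value inside the range of 120 to 334 of the others on the y axis.

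Most regions were far from such a clean pattern. Of the 109525 regions, 64784 (59.1%) were in 1 library only and 8887 (8.11%) in all 7. The gained regions were 5.37% of the 5144 regions in exactly 4 libraries, and the lost regions 2.53% of the 7244 in exactly 3. Absence from the kept list was in part absence from the deposited list. Of the 828 pairs of a gained region and a DMSO library, 368 (44.4%) had no summit in the full list, among them all 276 of DMSO replicate 2. Of the 732 pairs of a lost region and a pracinostat library, 213 (29.1%) had none. Of the gained regions, 195 (70.7%) had a summit in 2 full DMSO lists, 70 (25.4%) in 1 and 11 (3.99%) in none. Of the lost regions, 60 (32.8%) had a summit in all 4 full pracinostat lists, 62 (33.9%) in 3, 36 (19.7%) in 2, 21 (11.5%) in 1 and 4 (2.19%) in none. Most members thus carried a lower-ranked summit in at least 1 library of the treatment said to lack them.

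The same held for regions that were split between the treatments in other ways. Leaving out DMSO replicate 2, the lacking libraries of gained regions had a summit in their full list in 460 of 552 cases (83.3%), compared with 84.1% for the other regions in exactly 4 libraries. For lost regions it was 519 of 732 cases (70.9%), compared with 74.7% for the other regions in exactly 3.

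Ranks give the size of the gap, with rank 1 the highest summit of a library and 53503 the last kept one. Ranks past the limit come from lists of different length and describe each list only. In gained regions the best summit had a median rank of 31203, 30093, 27348 and 26539 in pracinostat replicates 1 to 4. In DMSO replicate 1, 227 of the 276 had a summit at a median rank of 81972, from 53845 to 206337. In DMSO replicate 3, 233 had one at a median rank of 97313, from 53756 to 289717. The gained regions were mid-list summits in the libraries that had them, with a median percentile among kept regions of 44.3 to 47.0, against 46.6 to 53.9 for all kept regions of the same libraries.

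In lost regions the median rank was 39151 in DMSO replicate 1 and 32870 in DMSO replicate 3. Their median percentile was 26.1, 32.6 and 37.8 in DMSO replicates 1 to 3, against 48.1, 32.6 and 44.8 for all kept regions of these libraries. Lost regions were thus nearer the bottom of the kept lists of DMSO replicates 1 and 3 than a typical kept region. Pracinostat replicates 1 to 4 had a summit in 127, 136, 114 and 142 of the 183, at median ranks of 94715, 86065, 120128 and 108157.

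**Figure D2:**
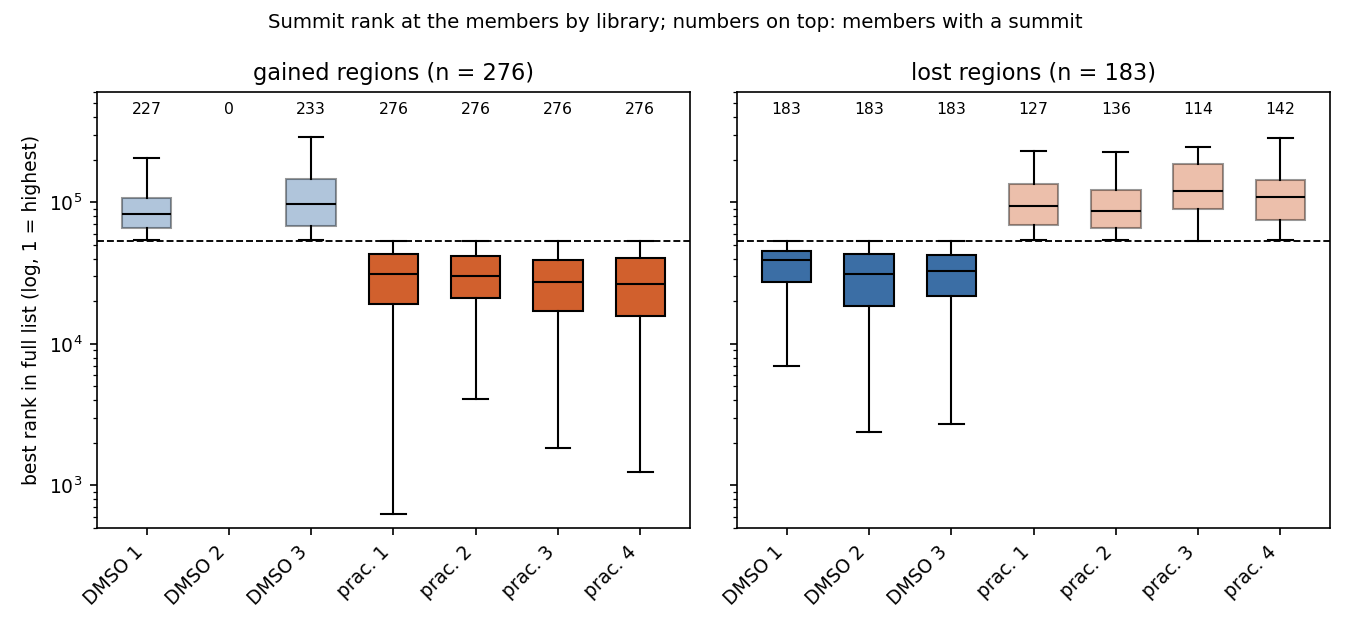
Rank of the best summit of each gained and lost region in each of the 7 libraries on a log axis, where rank 1 is the highest summit the dashed line is the last kept rank, 53503, boxes give the median and quartiles, whiskers the lowest and highest rank, and the numbers on top the members with a summit. Gained regions have median ranks of 26539 to 31203 in the pracinostat libraries and no summit in DMSO replicate 2.

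Near the limit, small differences in rank, or file order among equal values, decided membership. The lowest percentile over the libraries that had the region was 2.83 to 68.7 with a median of 13.3 for gained regions, and 2.70 to 60.6 with a median of 18.7 for lost regions. The best rank in the other treatment was within 10% of the limit in 52 gained (18.8%) and 36 lost regions (19.7%). It was more than 2 times the worst rank of the treatment that had the region in 115 gained (41.7%) and 66 lost regions (36.1%), and more than 5 times in 17 and 5. The lost counts include tied ranks of DMSO replicate 2, and with DMSO replicates 1 and 3 alone they were 81 (44.3%) and 8. Just inside the limit were gained regions near Tmem44 and in Oasl1, whose worst ranks were 53460 and 53421, and a lost region at Mrpl49 and Syvn1, with a worst rank of 53411. The Tmem44 and Oasl1 summits had the limit value, 10.3 in pracinostat replicate 1 and 15.7 in pracinostat replicate 2. Their place there rests on file order among equal values. By worst rank the Prps1 lost region came next, at 53396, a rank that rests on file order among the ties of DMSO replicate 2. The Prps1 region ranked 34458 and 19906 in DMSO replicates 1 and 3. Just outside, 2281 regions missed the gained pattern by 1 library, 1145 with a DMSO library extra and 1136 lacking a pracinostat library. For the lost pattern 2641 missed by 1, of which 370 had a pracinostat library extra and 2271 lacked a DMSO library. The highest of these near misses were a region nearest Stum, at percentiles of 93.2, 87.3 and 90.6 in pracinostat replicates 1 to 3 alone, and one nearest Baz2b in all pracinostat libraries and in DMSO replicate 1 at 93.3. For the lost pattern they were a region nearest Pde4c at 95.8 and 98.9 in DMSO replicates 2 and 3, and one nearest Caap1 at 87.9 and 95.8 in DMSO replicates 1 and 2.

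Of the 10 gained members with the highest lowest percentile, the 9 reported here stood well inside the kept lists of all pracinostat libraries. They are given with the nearest protein-coding gene, which is a label of position and no evidence that the region acts on that gene, and none had a summit in DMSO replicate 2. The region at a gene end of Zfp970, a zinc-finger gene, spanned chr2:177464570-177465082 and ranked 16654, 14047, 1845 and 16882 in pracinostat replicates 1 to 4. In DMSO replicate 3 it ranked 272092, and DMSO replicate 1 had no summit. All 4 pracinostat libraries were high there and the DMSO libraries were low or empty, and its lowest percentile, 68.7, was the highest of the 459 members. Zfp970 lies among closely related zinc-finger genes, where short reads are hard to place, and the part of read placement was not tested.

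The Castor2 region, chr5:134099415-134099945, covered the promoter of a gene for a subunit of the cytosolic arginine sensor of the mTORC1 pathway. It ranked 17016, 20379, 16596 and 17218 in the pracinostat libraries, against 159994 and 128980 in DMSO replicates 1 and 3. Pracinostat replicate 2 ranked lower than the other 3 pracinostat libraries, and all 4 were inside the kept list. How far apart these ranks stand depends in part on file order among equal values. The Ccdc181 region, chr1:164275334-164276011, at a gene for a coiled-coil protein, ranked 20313, 17863, 17132 and 15771 with pracinostat and 83175 and 111445 in DMSO replicates 1 and 3. The Akr1b10 region, chr6:34383850-34384612, at the promoter of an aldo-keto reductase, ranked 26078, 17510, 10815 and 6676 with pracinostat, and only DMSO replicate 3 listed it, at 159471. A region over a shared end of Nacc1, a transcriptional repressor gene, and Trmt1, a tRNA methyltransferase gene, chr8:84685893-84686835, ranked 26593, 19128, 18853 and 8566, against 108079 in DMSO replicate 3. These 5 lay at gene ends.

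The other 4 reported here lay inside genes or near one. Inside Ctif, a translation initiation factor gene, chr18:75456632-75457287 ranked 21598, 6806, 8500 and 18831, against 88836 and 81918. Inside Sgk1, the serum- and glucocorticoid-regulated kinase gene, chr10:21890030-21890757 ranked 11846, 9895, 21538 and 4928, against 170866 and 137771. The Sgk1 region was low in both DMSO libraries that listed it. At 932 bp from Prkcd, the protein kinase C delta gene, chr14:30627346-30627964 ranked 6453, 7918, 17605 and 23918, against 58483 and 56096, close to the limit of 53503. The DMSO replicate 3 summit, at 56096, had the limit value of that list, 12.9, so file order alone left it out. Inside Slc8a1, a sodium-calcium exchanger gene, chr17:81704611-81705284 ranked 14219, 18447, 5564 and 24426, and only DMSO replicate 3 listed it, at 67946.

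The 10 leading lost members were described in the same way. The Slc35a1 region, chr4:34687115-34687656, lay at the gene of the Golgi CMP-sialic acid transporter, and ranked 8192, 7908 and 21359 in DMSO replicates 1 to 3. Pracinostat replicates 1 and 2 listed it at 55838 and 82454, and replicates 3 and 4 had no summit. The pracinostat replicate 1 summit lay just past the limit. Its value, 10.3, was the limit value of that library, so file order alone left it out. A region inside Dnm2, the gene of the membrane-scission GTPase dynamin 2, chr9:21433533-21434348, ranked 14618, 18027 and 24588 with DMSO and 58554, 85501, 116789 and 64461 with pracinostat. The pracinostat replicate 1 summit there also had the value 10.3 and was left out by file order. Inside F13a1, the coagulation factor XIII A gene and a marker of monocyte-derived macrophages, chr13:37010511-37011220 ranked 23182, 11483 and 20455 with DMSO and 113044, 62629 and 119898 in pracinostat replicates 1, 2 and 4. Pracinostat replicate 3 had no summit in the F13a1 region.

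At the Dmac2 promoter, chr7:25618962-25619598, a gene for assembly of mitochondrial complex I, DMSO ranks were 24293, 16776 and 19561. Pracinostat replicates 2 to 4 listed it at 66754, 114434 and 90233. Inside Alg8, a glucosyltransferase gene of N-glycan assembly, chr7:97382379-97382977 ranked 24351, 17089 and 21897 with DMSO. There only pracinostat replicate 1 had a summit, at 68779, so 3 of the 4 pracinostat lists were empty. Inside Zfp710, a zinc-finger gene, chr7:80031386-80031999 ranked 7801, 8663 and 27281 with DMSO and 68699, 128482 and 94862 in pracinostat replicates 1 to 3.

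The last 4 of these had lower percentiles, 48.1 to 38.4 in the library where each was lowest. Inside Tbc1d2, a gene for a GTPase-activating protein of Rab7, chr4:46614496-46615396 ranked 28053, 15022 and 15585 with DMSO and 65447 to 165723 with pracinostat. Inside Gm46963, chr6:86607368-86608062 ranked 16565, 16417 and 30479 with DMSO, and at best 59562 with pracinostat. At 7503 bp from Ankdd1a, chr9:65527915-65528950 ranked 31423, 18218 and 27637, against 105063 and 97398 in pracinostat replicates 1 and 2. Inside Elf1, an ETS transcription factor gene, chr14:79546245-79547273 ranked 32410, 12059 and 20613 with DMSO and 63071 to 126233 with pracinostat.

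**Figure D3:**
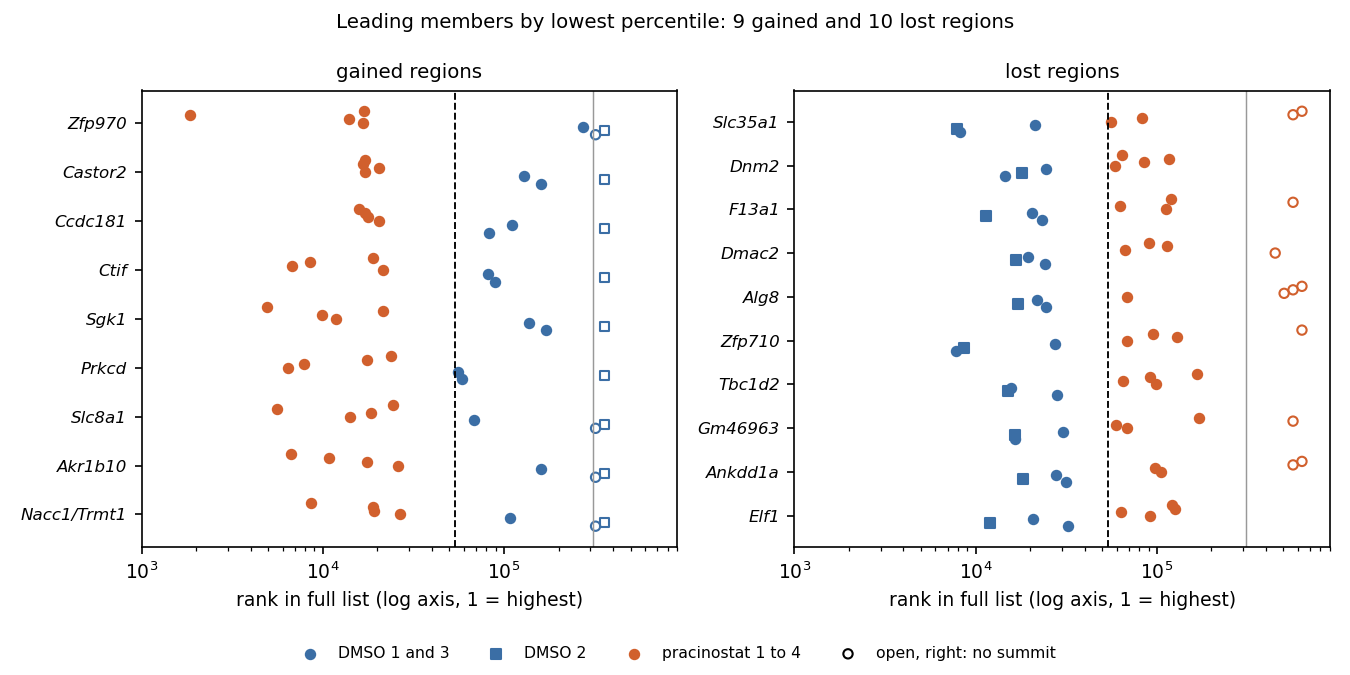
Rank (log axis, 1 is the highest) of 9 gained and 10 lost regions among the 10 of each direction with the highest lowest percentile in each of the 7 libraries; the dashed line is the last kept rank, 53503, and open points at the right stand for no summit in the full list. DMSO replicate 2, drawn as squares, has no summit in any of the 9 gained regions, and the Prkcd region comes nearest the line in the DMSO libraries, at 56096.

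A few members were empty in the full lists of the other treatment, and the first 5 gained and all 4 lost of them by percentile were looked at. The gained regions lay 50450 bp from Tent2, a poly(A) polymerase gene, 531 bp from Rpl3, a ribosomal protein gene, inside Slc9a5, a sodium-proton exchanger gene, 283 bp from Mrpl12, a mitochondrial ribosome gene, and 25965 bp from Rcsd1. The Tent2 region ranked 13884, 26868, 10242 and 42387 with pracinostat, and the Rpl3 region 16072, 42139, 17726 and 42890. Their worst ranks were thus in the lower part of the kept lists. The Slc9a5 region ranked 26128 to 46705, the Mrpl12 region 32299 to 45778 and the Rcsd1 region 10394 to 44415. The lost regions lay inside Myo5a, a myosin gene, 932 bp from Mixl1, a homeobox gene, inside Dpf2, a gene of the BAF chromatin-remodelling complex, and inside Arsb, the lysosomal arylsulfatase B gene. The Mixl1 region ranked 41609, 5861 and 4429 with DMSO. In DMSO replicates 1 and 3 the ranks were 34368 and 40088 for Myo5a, 43365 and 43010 for Dpf2, and 52187 and 41780 for Arsb.

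By position, one-treatment regions lay close to the other regions found in as many libraries. Positions were taken relative to the 2 ends of each of 21627 protein-coding genes, one of which is its 5′ end. Of the gained regions 20.3% (95% Clopper-Pearson interval 15.7 to 25.5) lay within 1 kb of a gene end, 53.6% elsewhere inside a gene and 26.1% outside genes. Of the other regions in exactly 4 libraries 22.6%, 53.9% and 23.5% did. Of the lost regions 17.5% (12.3 to 23.8) lay within 1 kb of a gene end, 59.6% elsewhere inside a gene and 23.0% outside, against 18.1%, 58.2% and 23.6% of the other regions in exactly 3. Regions in all 7 libraries stood apart, with 53.8% within 1 kb of a gene end. The intervals cover counting error only, and neighbouring regions are not independent.

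Listed start sites gave the same order of these sets. Within 1 kb of one lay 41 of 267 gained regions (15.4%) and 16 of 175 lost regions (9.14%, 95% Clopper-Pearson interval 5.32 to 14.4), chromosome 18 not used. The other regions in exactly 4 and exactly 3 libraries gave 19.2% and 13.5%, and regions in all 7 gave 48.8%. Over all regions 12.1% lay within 1 kb of a start site and 16.9% within 1 kb of a gene end. Lost regions were thus below all regions by start site and slightly above them by gene end. Both shares of all regions lay inside the intervals of the lost regions. The median distance to a gene end was 8573 bp for gained and 7503 bp for lost regions, against 424 bp for regions in all 7 libraries. Median width was 821 and 829 bp, against 1635 bp in all 7. The distances and widths were 7975 bp and 878 bp for the other regions in exactly 4 libraries, 9225 bp and 755 bp for those in exactly 3, and 9628 bp and 501 bp over all regions. One-treatment regions were thus farther from gene ends and narrower than regions in all 7 libraries, and nearer and wider than the median of all regions.

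**Figure D4:**
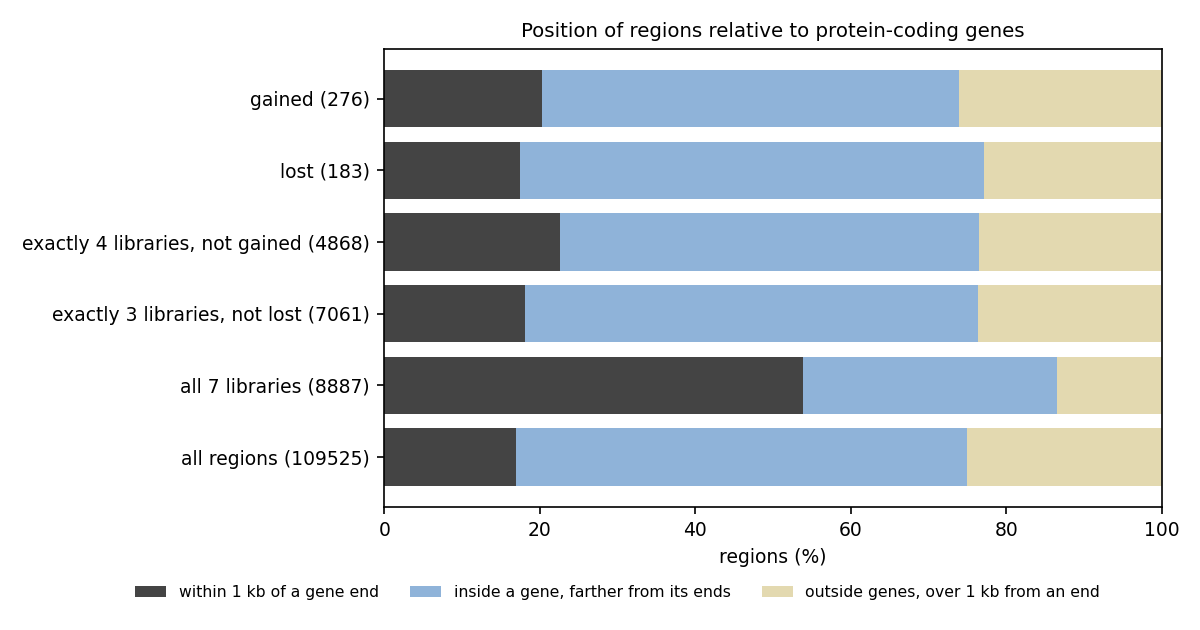
Share of regions (x axis, %) within 1 kb of a protein-coding gene end, elsewhere inside a gene, or outside genes, for gained and lost regions, the other regions in exactly 4 or 3 libraries, regions in all 7 libraries and all regions, with their numbers. The bars of gained and lost regions, with 20.3% and 17.5% near a gene end, lie close to those of regions in as many libraries, and the bar for all 7 libraries stands apart at 53.8%.

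Few members held an IgG summit, from IgG lists of 2194 to 18517 summits. The share was higher in lost regions than in their comparison regions, and this difference was not tested. An IgG summit lay in 6 gained (2.17%) and 8 lost regions (4.37%), against 2.65% and 2.12% of the other regions in exactly 4 and 3 libraries. No IgG library had a summit in more than 2 gained or 4 lost regions.

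Over chromosomes the members were unevenly spread. Chromosome 3 held 17 gained regions (6.16%) and 1 lost region (0.546%), against 4.25% of all regions. On chromosome 14 there were 18 gained (6.52%) and 2 lost (1.09%), against 3.59%, while chromosome 7 held 14 gained (5.07%) and 20 lost (10.9%), against 6.27%. Chromosome X held 2 and 4. Equal values at the limit of the kept lists were taken in file order, which favours chromosomes listed earlier, and its part in this spread was not tested; with ties taken in the reverse order 220 of the gained (79.7%) and 140 of the lost regions (76.5%) stayed members.

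Several genes were nearest to more than 1 member. The gained regions were nearest to 267 genes and the lost regions to 184. Mertk had 2 gained regions, and so did Apobec1, a cytidine deaminase gene, Bmp2k, Cttnbp2nl, Extl3, Glul, the glutamine synthetase gene, Itpkb, an inositol trisphosphate kinase gene, Kctd12, Mbnl1, a splicing regulator gene, and Rhobtb2. In Bmp2k they lay side by side, chr5:96999234-97000054 and chr5:97000271-97001506, and can be read as 1 broad signal. The same was so in Apobec1 and Rhobtb2, whereas the Glul regions were 4075 and 95964 bp from the gene. These genes differed in how many of all regions were nearest to them, from 9 at Rhobtb2 to 66 at Mbnl1, with 55 at Mertk. How often pairs arise at genes with that many regions was not tested.

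Lost regions came in pairs at 5 genes: Dnm2, Galns, a lysosomal sulfatase gene, Pfkl, a phosphofructokinase gene, Rhbdf2, which encodes a partner of the sheddase ADAM17, and Smap2, which encodes an Arf regulator. Of all regions, 44 were nearest to Dnm2, 36 to Smap2, 16 to Galns, 13 to Rhbdf2 and 11 to Pfkl. The 2nd Dnm2 region, chr9:21454568-21455602, ranked 9400 and 7483 in DMSO replicates 1 and 3, and 58557, 97165 and 64464 in pracinostat replicates 1, 2 and 4. The Smap2 region at chr4:121012530-121013818 ranked 28086, 15185 and 33904 with DMSO and 65048 to 98976 with pracinostat. In DMSO replicate 2 the Dnm2 region rested on a summit at the lowest value, and the Smap2 region did not. Members within 50 kb of each other formed 10 gained clusters with 21 members and 7 lost clusters with 14. How many clusters other regions form was not tested.

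At 7 genes both a gained and a lost region were found: Elf1, Ifitm6, Itgb5, Lgmn, Rcor1, Stx7 and Tns3. In Elf1 the gained region, chr14:79535220-79535805, lay 10.4 kb from the lost one. It ranked 24335, 29286, 17672 and 49841 with pracinostat and 120991 and 56318 in DMSO replicates 1 and 3. The DMSO replicate 3 summit had the limit value of that list, 12.9, and was left out by file order. The pracinostat replicate 4 summit of the gained region had the limit value there, 12.8, and was kept by file order. At Lgmn, the gene of the lysosomal protease legumain, the pair lay 343 bp apart. The gap was 3767 bp at Ifitm6, an interferon-induced transmembrane gene, 5315 bp at Stx7, a late-endosome syntaxin gene, 11.8 kb at Rcor1, 46.4 kb at Itgb5 and 85.5 kb at Tns3. A gene name alone therefore did not give these loci a direction.

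Genes were also read in 15 lists of macrophage, glioma and chromatin biology, of which 304 of 305 genes were in the gene table. Of the gained regions 12 (4.35%) and of the lost regions 11 (6.01%) were nearest to a listed gene, against 4.16% of all regions. For phagocytosis, 4 gained regions (1.45%) and 1 lost region were nearest to a listed gene, against 0.828% of all regions. They lay at Mertk (2 regions), the receptor that recognises dying cells, in Itgb5, the integrin beta 5 subunit, and in Wasf2, an actin regulator of the WAVE complex. The Mertk region at chr2:128710482-128711436 ranked 46684, 17235, 25618 and 32878 with pracinostat, against 68270 and 152744 in DMSO replicates 1 and 3. The other, chr2:128808331-128809266, ranked 39804, 47404, 41712 and 51751, against 60343 and 124262, and 1 IgG library had a summit in it. Both Mertk regions were near the limit in at least 1 pracinostat library. The Wasf2 region ranked 25696, 39547, 29106 and 52668 with pracinostat and 129609 and 191853 in DMSO replicates 1 and 3. The Itgb5 gained region ranked 38724, 46572, 11555 and 50382, against 66784 and 56966, and Itgb5 also held the lost region. The DMSO replicate 3 summit in the gained region had the limit value of that list, 12.9, so only file order excluded it. In pracinostat replicate 4 the 2nd Mertk region and the Wasf2 and Itgb5 gained regions had the limit value of that list, 12.8. Their membership thus rests on file order there.

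Of the microglia list, 3 gained regions (1.09%) and no lost region were nearest to a member, against 0.370% of all regions. Besides the Mertk pair this was a region 4633 bp from Cx3cr1, the fractalkine receptor gene, chr9:120072929-120073664. It ranked 20145, 12646, 15288 and 34943 with pracinostat, and DMSO replicate 3 listed it at 289717, near the end of its list, while DMSO replicate 1 had no summit. All 4 pracinostat libraries held the Cx3cr1 region at rank 34943 or better. Of the 20 microglia genes, 15, 10 and 13 had a kept summit within 1 kb of a gene end in DMSO replicates 1 to 3, and 16, 16, 17 and 15 in the pracinostat libraries. Their part in the Cx3cr1 and Mertk regions was not tested.

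The neutrophil list gave 1 lost region (0.546%, against 0.0557% of all regions), inside Mmp8, a collagenase gene, chr9:7567054-7567840. It ranked 19405 and 52893 in DMSO replicates 1 and 3, and 104580, 185822 and 284391 in pracinostat replicates 1, 2 and 4. The Mmp8 summit of DMSO replicate 2 was at its lowest value. Of the 18 neutrophil genes, 5, 9 and 5 had a kept summit near a gene end in DMSO replicates 1 to 3 and 3, 4, 1 and 3 in the pracinostat libraries, with DMSO replicate 2 the highest; the part of neutrophils in the Mmp8 region was not tested. Among the other lists of cell types, F13a1 was the 1 lost region of the monocyte-derived macrophage list (0.546%, against 0.199% of all regions). Lost regions near Tubb3, a neuronal tubulin gene, and in Mbp, the myelin basic protein gene, were the ones for brain cells, 1 each, where the neuron and astrocyte list had 0.0593% and the oligodendrocyte list 0.0767% of all regions. The Tubb3 region ranked 31347 and 35029 in DMSO replicates 1 and 3, and the Mbp region 53365 and 15336. Both DMSO replicate 2 summits were at its lowest value. The Mbp summit of DMSO replicate 1 had the limit value of that list, 13.3, and was kept by file order. Pracinostat replicates 2 to 4 listed the Tubb3 region at 85412, 116612 and 284038. All 4 pracinostat libraries listed the Mbp region, at 57700 to 190511. Kept summits near gene ends were found for 78.4% to 89.2% of the macrophage transcription factors in each library, against 0% to 14.3% of neuron and astrocyte genes, 18.2% to 36.4% of oligodendrocyte genes, highest in DMSO replicate 2, and 0% to 30.0% of endothelial and mural genes. The dendritic cell, lymphocyte, endothelial, interferon and antigen presentation lists had no member in either direction. Of all regions, 0.0447% to 0.199% were nearest to a gene of each of these lists, so the absence says little. The interferon list is short and does not hold Ifitm6, at which members were found.

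Of the macrophage transcription factors, 3 gained (1.09%) and 2 lost regions (1.09%) were nearest to one, as were 1.09% of all regions. The gained ones lay in Zeb2, in Elf1 and 9894 bp from Fos, an AP-1 subunit gene. The Zeb2 region, chr2:45089450-45090666, ranked 29327, 4094, 14512 and 24768 with pracinostat and 126261 and 58344 in DMSO replicates 1 and 3, and 1 IgG library had a summit in it. The Fos region ranked 32417, 11300, 21928 and 27251, against 65418 and 55476. Both had a DMSO replicate 3 rank near the limit. In both that summit had the limit value of the list, 12.9, so file order alone left it out. The lost regions lay in Elf1 and 54258 bp from Cebpb, a C/EBP factor gene. The Cebpb region ranked 43823, 14501 and 38198 with DMSO and 60916 to 133154 with pracinostat.

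Lipid and lysosome genes had 2 gained regions (0.725%, against 0.472% of all regions) and no lost one. One lay 8332 bp from Spp1, the osteopontin gene, chr5:104425433-104426779, and ranked 626, 33038, 14842 and 17168 with pracinostat, against 92292 and 85860 in DMSO replicates 1 and 3. Rank 626 was the highest of any gained region in pracinostat replicate 1, and replicate 2 stood far below it. The other lay 35903 bp from Abca1, a cholesterol exporter gene, and ranked 22169, 32825, 20496 and 15066, against 91201 in DMSO replicate 1. The NF-kB list had 1 gained region (0.362%, against 0.243% of all regions), in Tnfaip3, the gene of the A20 feedback inhibitor, at 50694, 34050, 8114 and 47894 with pracinostat. The Tnfaip3 summits of pracinostat replicates 1 and 4 had the limit values of those lists, 10.3 and 12.8, and were kept by file order.

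For the enzymes that add and remove acetyl groups and their corepressors, 1 gained (Rcor1) and 4 lost regions (2.19%) were nearest to a member, against 0.363% of all regions. Of the lost ones, 3 are reported here, in Hdac7, a class IIa deacetylase gene, Kat6a, an acetyltransferase gene, and Rcor1, the CoREST gene. The Hdac7 region, chr15:97822696-97823510, ranked 47329 and 37085 in DMSO replicates 1 and 3, and 150181 and 196115 in pracinostat replicates 1 and 4. The Hdac7 and Kat6a summits of DMSO replicate 2 were at its lowest value. The Kat6a region ranked 28688 and 52530, against 67210 to 131878, and the Rcor1 lost region 46759, 11363 and 36469, against 182353 and 80963 in pracinostat replicates 3 and 4. The Rcor1 gained region, chr12:111093346-111094447, ranked 32480, 50799, 35159 and 42127 with pracinostat. Its pracinostat replicate 2 summit had the limit value of that list, 15.7, and was kept by file order. These list counts are small and were not tested.

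With the sequences shown included, 26 promoter windows lay in 25 gained regions and 15 in 13 lost regions. The number of CpG per window was 1 to 53 with a median of 14 in gained and 3 to 44 with a median of 20 in lost regions, the same median as for the other regions in exactly 4 and in exactly 3 libraries. The median was 22 in all 7 and 13 over all 21019 windows. CpG-poor gained windows included those of Wipf1, a WASP partner gene, with 1 CpG, Ifitm6 with 2 and Clec5a, a myeloid lectin receptor gene, with 3. A CpG-poor lost window was that of Pf4, the platelet factor 4 chemokine gene, with 3. These 4 genes were picked after their values were seen.

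Letters of 6 motifs were searched on both strands of these windows. Shares are given beside those of windows in the other regions in exactly 4 libraries, in exactly 3 libraries, and of all windows. The E-box, CACGTG, was in 4 gained windows (15.4%) in 3 regions and in 5 lost windows (33.3%) in 4 regions, since overlapping windows of Gtf3c6 and of Dmac2 count 2 times; the shares beside them were 9.25%, 9.36% and 7.91%. It is in the Dmac2 window printed above. The GC box, GGGCGGG, was in 9 gained (34.6%) and 4 lost windows (26.7%), beside 46.8%, 45.1% and 34.2%, and its complement is in the printed Akr1b10 window. The AP-1 letters, TGANTCA, were in 1 gained window (3.85%) and no lost one, beside 3.76%, 4.40% and 7.04%. The cAMP response element, TGACGTCA, was in neither, beside 3.76%, 3.49% and 2.26%. For PU.1, GAGGAAGT, it was 0 and 1 window, the Pf4 window, beside 3.90%, 2.94% and 3.15%. For C/EBP, TTGCNNAA, it was 2 gained (7.69%) and 2 lost windows (13.3%), beside 7.37%, 7.34% and 10.3%. No 2 of these motifs share their letters in full, and with so few windows these shares are a description.

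Members depended strongly on how the lists were cut. With 30000 summits kept per list, 26 of the gained (9.42%) and 13 of the lost regions (7.10%) were still members, and with 20000 summits 1 and 1 were. Under full lists 6 gained and 2 lost regions were, and with 18575 summits per list, a length chosen after seeing the data, 1 and 0. With an extension of 100 bp 177 and 83 stayed, with 500 bp 150 and 101, and leaving out regions with an IgG summit left 270 and 175. Membership at a given locus is thus tied to the list length of 53503, which DMSO replicate 2 set.

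**Figure D5:**
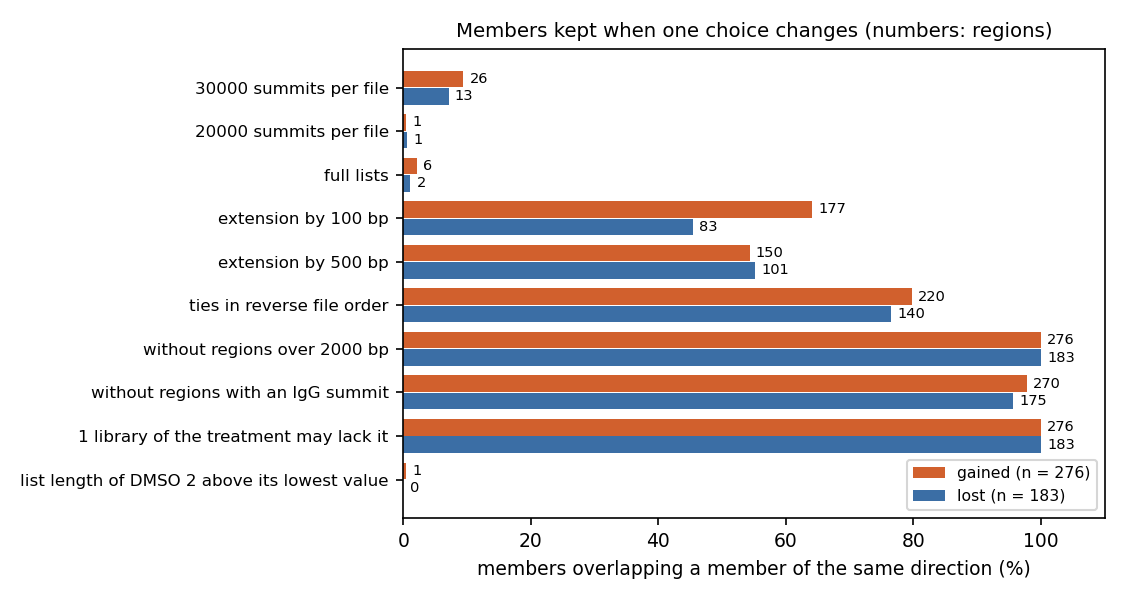
Share of the 276 gained and 183 lost regions (x axis, %, with their number beside each bar) that overlapped a member of the same direction under each alternative setting. The lowest bars are those for shorter lists and for full lists, with 26 and 13 at 30000 summits and 6 and 2 under full lists.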

How the data were processed

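H3K27ac CUT&Tag was measured in 7 libraries and IgG in 7. The deposited unit is a −log10 value per summit; the authors made 1 summit list per library, and whether it is of a p-value or q-value is not given in the sources used here. The tools named in the submitters' processing notes are HOMER, Bowtie2, DESeq2 and MACS2 2.2.9.1, with the build mm10. Their roles and thresholds and the read numbers are not stated there, and depth is known only through summit numbers. The value grows with depth, so it only ranked summits within a list.

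Regions were built and counted in Python 3.11.15 (numpy 2.4.6, pandas 2.3.3, scipy 1.17.1), tested on simulated data. Groups came from the labels. Counts were set against all 35 arrangements of the 7 libraries by an exact permutation test. The members and gene lists were chosen with earlier results of these data known. Gene ends came from a RefSeq table of GRCm38.p6. Start sites had been planned for position; the promoter table was incomplete, so gene ends were used and start sites came second. Exons, introns and untranslated regions were not used here.

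Regions were named by the nearest protein-coding gene: the 10 per direction with the highest lowest percentile, those nearest to a listed gene, genes with 2 or more members, up to 5 per direction with no summit in the other treatment, and those at the limit of the rule. A few that the rule names are not reported here. Alternatives changed list length, extension, ties, region width, IgG overlap, presence rule, position window and libraries.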

Additional observations from a re-analysis of the deposited data

Results flagged for a closer look

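Of 54 groups of values examined, 1 held a sample far from the others: pracinostat replicate 2 in the Castor2 gained region, at rank 20379, where the other 3 pracinostat libraries ranked 17016, 16596 and 17218. The gap was 0.836 of the range of these 4 libraries. Chance flags about 1 in 20 groups, which is more than was found. Most of the groups were ranks at gained regions, the values by which these regions were chosen. The gap also depends in part on file order. In pracinostat replicate 2, gained regions at ranks 19268 and 20570 had the same value as the Castor2 summit, 35.2.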

How the results depend on the processing

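Counts moved with the length of the lists. Gained regions numbered 165 with 30000 summits per list, 108 with 20000 and 1579 with full lists. Lost regions numbered 92, 83 and, close to the main count, 239. With 1 library of the treatment allowed to lack the region, there were 1412 gained and 2454 lost regions. With 18575 summits per list, a length chosen after seeing the data, there were 94 and 75. Leaving out 1 library gave 496 to 823 gained and 259 to 1059 lost regions, since fewer libraries then have to share a pattern.

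The exact permutation p of the gained count was 0.0286, the smallest possible, with an extension of 500 bp, and otherwise 0.0571 to 0.286; without 1 library it was 0.05 to 0.133. That of the lost count was 0.114 to 0.914, and 0.0667 to 0.850 without 1 library. The cause of these shifts was not tested. Presence was correlated between same-numbered libraries over 35854 regions, after the mean of each treatment was taken off. The correlations were -0.00247, -0.00103 and -0.0145 for replicates 1 to 3. Differently numbered libraries were not compared, so this cannot settle whether the numbers mark pairs. With the numbers as a replicate block, 8 arrangements gave p of 0.125, the smallest they allow, for the gained and 0.625 for the lost count.

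The sum of both counts was reached by 10 of the 35 arrangements with 30000 summits per list, and by 19 with 18575. With full lists 15 reached it, and with an extension of 100 bp 8 did. Only the treatments reached it with 500 bp, with reversed ties, and without regions over 2000 bp. The same was so without regions with an IgG summit and with 1 library allowed to lack the region. Within 500 bp of a gene end lay 15.2% of gained and 14.8% of lost regions, against 12.8% of all regions. Within 2500 bp it was 30.8% and 26.2%, against 26.3% of all regions. The number of summits, not reads, is the depth known here.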
